A study of Mus musculus with 5 samples.

Results

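Control cells differentiated towards heart muscle for 10 days were compared with the undifferentiated mouse embryonic stem cells (ESCs) from which such cultures start. The comparison takes 2 of the 5 single-colour arrays of a study of Linc1405, a long non-coding RNA, with 1 array a side, and it gives the net change over the whole course. The stem cells were of the line 46C, labelled control, and grew in 15% fetal bovine serum with leukaemia inhibitory factor (LIF) at 1000 U/ml on a feeder layer that was taken off before harvest. The day 10 cells, also labelled control and called cardiomyocytes in the labels, were kept in StemCell Pro-34 medium with bFGF at 10 ng/ml, VEGF at 5 ng/ml and FGF10 at 25 ng/ml. Between them lay the day 4 mesoderm stage, in serum-free N2 and B27 medium with Bmp4 at 0.2 ng/ml and 5 ng/ml of Activin A and of VEGF. The day 4 control array and the 2 arrays of the Linc1405 knockdown line, whose samples are named MES_1405KIpA and CM_1405KIpA, are given beside the 2 compared arrays for the genes described. Growth medium, serum, feeder layer and stage differ together between stem cells and day 10, so their parts in any difference cannot be told apart.

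A pluripotent stem cell holds its state through a small circuit of transcription factors that is kept running by LIF. On the way to a heart muscle cell it passes through the primitive streak and lateral mesoderm, where T-box, GATA and HAND factors are switched on. The muscle cell is then built from thin and thick filaments anchored at the Z-disc, a calcium store, ion channels and a dense set of mitochondria. Cultures of this kind also give rise to endothelium, matrix-forming cells and other derivatives, and RNA of the whole culture was measured. In such bulk RNA a lower value cannot be assigned to fewer cells of a type or to less RNA per cell, as these cannot be told apart.

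Values are normalized intensities on the log2 scale, and a difference is the day 10 level minus the stem cell level on that scale, so that 1 is a 2-fold change. Intensities under 100 were set to 100 (6.64 on the log2 scale), and a difference with an array at that floor is a bound, written as at least or as a value or less. Of 17742 named genes, 10059 had a brighter array at or above the median gene level of 10.05, and these are called measured above the filter. A gene that is dim in one state passes this filter only through the other state, so counts over genes above the filter favour differences, and list medians are given over all measured members. At the edge of the filter lay Krt16, a keratin, with a brighter level of 10.053 and a difference of -1.48, just inside, and Fancf, a DNA repair gene, with 10.052 and -0.95, just outside. With 1 array a side there was no spread between cultures and no test, and each difference describes this pair of arrays.

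Close to as many genes were higher as were lower at day 10. Of the 10059 genes, 2337 were at least 2-fold higher (23.2%) and 2299 at least 2-fold lower (22.9%), while 5423 (53.9%) lay within 2-fold. At the far ends, 247 genes were at least 16-fold higher (2.46%) and 155 at least 16-fold lower (1.54%). These shares are the background against which the gene lists below are read. The median difference over all genes was 0.00 after quantile normalization. With the values as deposited that median was -0.51, and the same filter then gave 1521 genes higher and 3622 lower, which is 29.6% higher and 70.4% lower of those called against 50.4% and 49.6% here. Differences are therefore relative to the typical gene. Where a gene had 2 probes above the filter (898 genes), the SD of a single probe's log2 difference was 0.776, which covers probe error only. Of 360 such genes at least 2-fold apart on the brighter probe, 338 (93.9%) had the same sign on the second, and 276 were also at least 2-fold apart on it.

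**Figure D1:**
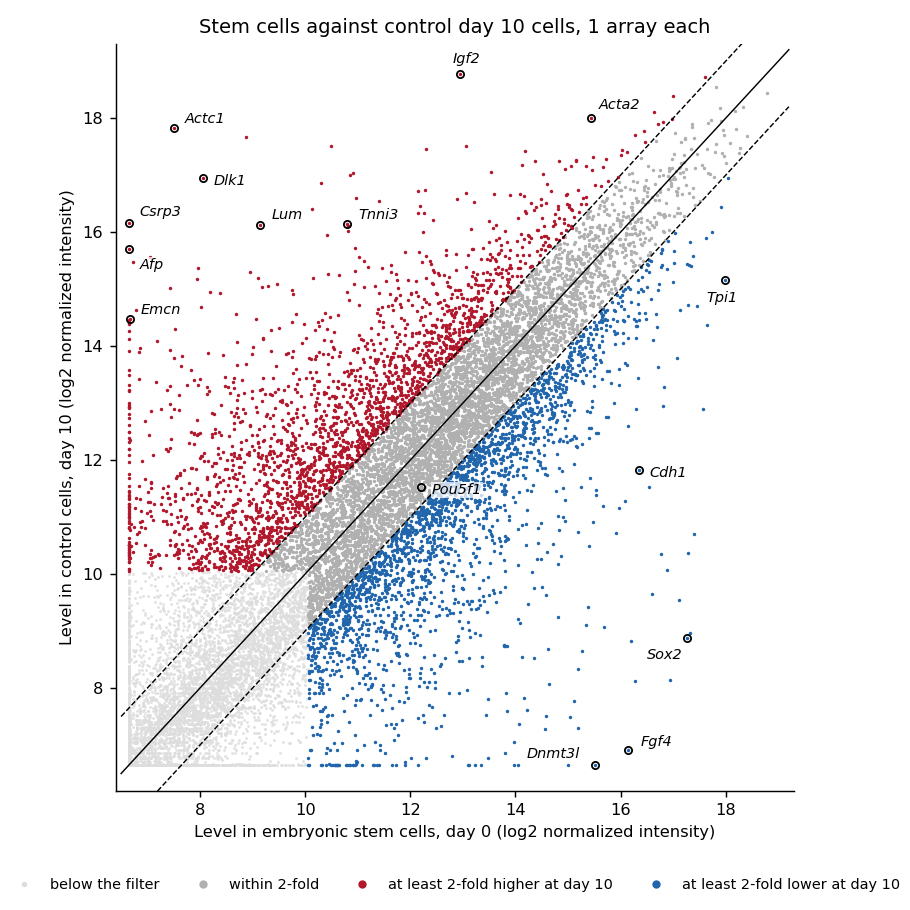
Level of each named gene in embryonic stem cells (horizontal axis) and in control day 10 cells (vertical axis), both as log2 normalized intensity from 1 array each, with the line of equality (solid) and 2-fold lines (dashed). Red points are the 2337 genes at least 2-fold higher and blue points the 2299 at least 2-fold lower at day 10, and points on the left and lower edges are at the floor of 6.64.

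The labels were first set against cell type markers. Of 4 measured stem cell markers, all were above the filter level in ESCs, and 3 were at least 2-fold lower at day 10. Each of 6 measured cardiomyocyte markers was at least 2-fold higher at day 10, at levels from 12.89 to 17.82. Myh6, Myh7, Myl2, Myl7, Nkx2-5 and Nanog were not among the named genes and were not analysed here. The day 10 culture also carried markers of other cell types: 5 of 6 for fibroblasts, 4 of 4 for epicardium, 3 of 4 for endothelium and 4 of 4 for liver-type endoderm were at least 2-fold higher than in ESCs. Macrophage markers were mixed, with 1 of 3 higher and 1 lower, and 1 of 2 measured smooth muscle markers was higher. The 2 measured blood markers and the 2 measured neural markers were below the filter level on both arrays. The day 10 array thus held heart muscle markers together with markers of these other cell types, whose part in any value was not tested.

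Among genes above the floor on both arrays, cardiac actin gave the largest gain of all. Actc1, the actin of the embryonic heart's thin filament, was at 7.50 in ESCs, 10.35 and 10.59 in control and knockdown cells at day 4, and 17.82 and 16.81 in the same order at day 10. Its difference of 10.32 is a 1283-fold higher intensity, most of it gained after day 4. Next came Dlk1, an imprinted growth regulator (8.90 on the brighter probe, 2.75 on the other), Cxcl12, a chemokine (8.78), and Asb4, an ankyrin-repeat protein of vascular development (8.76). Sh3bgr, a muscle protein (8.52), followed, and then Tmem204 (7.84) and Emcn (7.81), both known from endothelium. Asb4 had nearly reached its day 10 level of 15.48 by day 4, at 14.97, whereas Sh3bgr was still at 7.76 on day 4 and at 15.56 on day 10.

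The rest of the 15 highest were Ttr (7.59), a carrier of thyroid hormone and retinol, Igfbp5 (7.41), an IGF-binding protein, Popdc2 (7.24), a membrane protein of heart muscle, Art3 (7.11), Colec11 (7.05), a lectin of the complement system, Plagl1 (7.02), an imprinted zinc finger factor, Lum (6.98), a matrix proteoglycan, and Nell2 (6.89). For Nell2 the second probe differed by -0.57, so its direction rests on the brighter probe. Heart muscle, endothelium, matrix and liver-type genes thus all stood among the 15. With the ESC array at the floor, the brightest at day 10 were Csrp3, the muscle LIM protein of the Z-disc (at least 9.51), Afp, alpha-fetoprotein (at least 9.05), Tmod1, which caps thin filaments (at least 7.82), Top2b, a DNA topoisomerase (at least 7.77), and Mrpl36, a mitochondrial ribosomal protein (at least 7.74). Top2b and Mrpl36 stood apart from the other 3 in their course: Top2b was at the floor in ESCs and in both day 4 arrays, and Mrpl36 was at the floor in ESCs and in knockdown cells at day 10 but between 14.38 and 14.89 on the other 3 arrays. Each of these 2 genes had 1 probe.

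At the other end, Fgf4, the autocrine growth factor of the inner cell mass, was at 16.15 in ESCs, 11.42 and 11.02 in control and knockdown cells at day 4, and 6.91 and 7.30 at day 10. Its difference of -9.24 is a 604-fold lower intensity, divided about evenly between the steps before and after day 4 (-4.73 and -4.51). Ooep, an egg and early embryo protein, followed at -8.80, then Sox2 (-8.38), Trh (-8.36), a peptide hormone precursor, and Esrrb (-8.14). Further down lay Tcl1 (-7.90), a co-activator of AKT kinase, Qprt (-7.56), an enzyme of NAD synthesis, Zfp42 (-7.55), Utf1 (-7.37), Triml2 (-7.35), Morc1 (-7.29), Zfp296 (-7.07), Fbxo15 (-6.95), Tdgf1 (-6.92) and Spp1 (-6.80). Tcl1 was at 15.20 in ESCs, 6.82 at day 4 and 7.30 at day 10, and Ooep at 16.94, 8.55 and 8.14, so that both had reached a low level by day 4. With the day 10 array at the floor, Dnmt3l, a partner of the de novo DNA methyltransferases, differed by -8.86 or less, Triml1 by -8.36 or less, Nphs1 by -7.40 or less, Rbmxl2 by -7.33 or less and Dppa2 by -6.69 or less. The second probe of Nphs1 was at the floor on both arrays.

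Lists of genes with a shared role were then described by their counts and medians. The 45 lists named 1040 genes, of which 881 were measured. Medians of at least 1 were found for 15 lists, medians of -1 or less for 7, and 23 lay between. Among the 45, sarcomere genes had the highest median (3.61) and core pluripotency factors the lowest (-4.59).

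**Figure D2:**
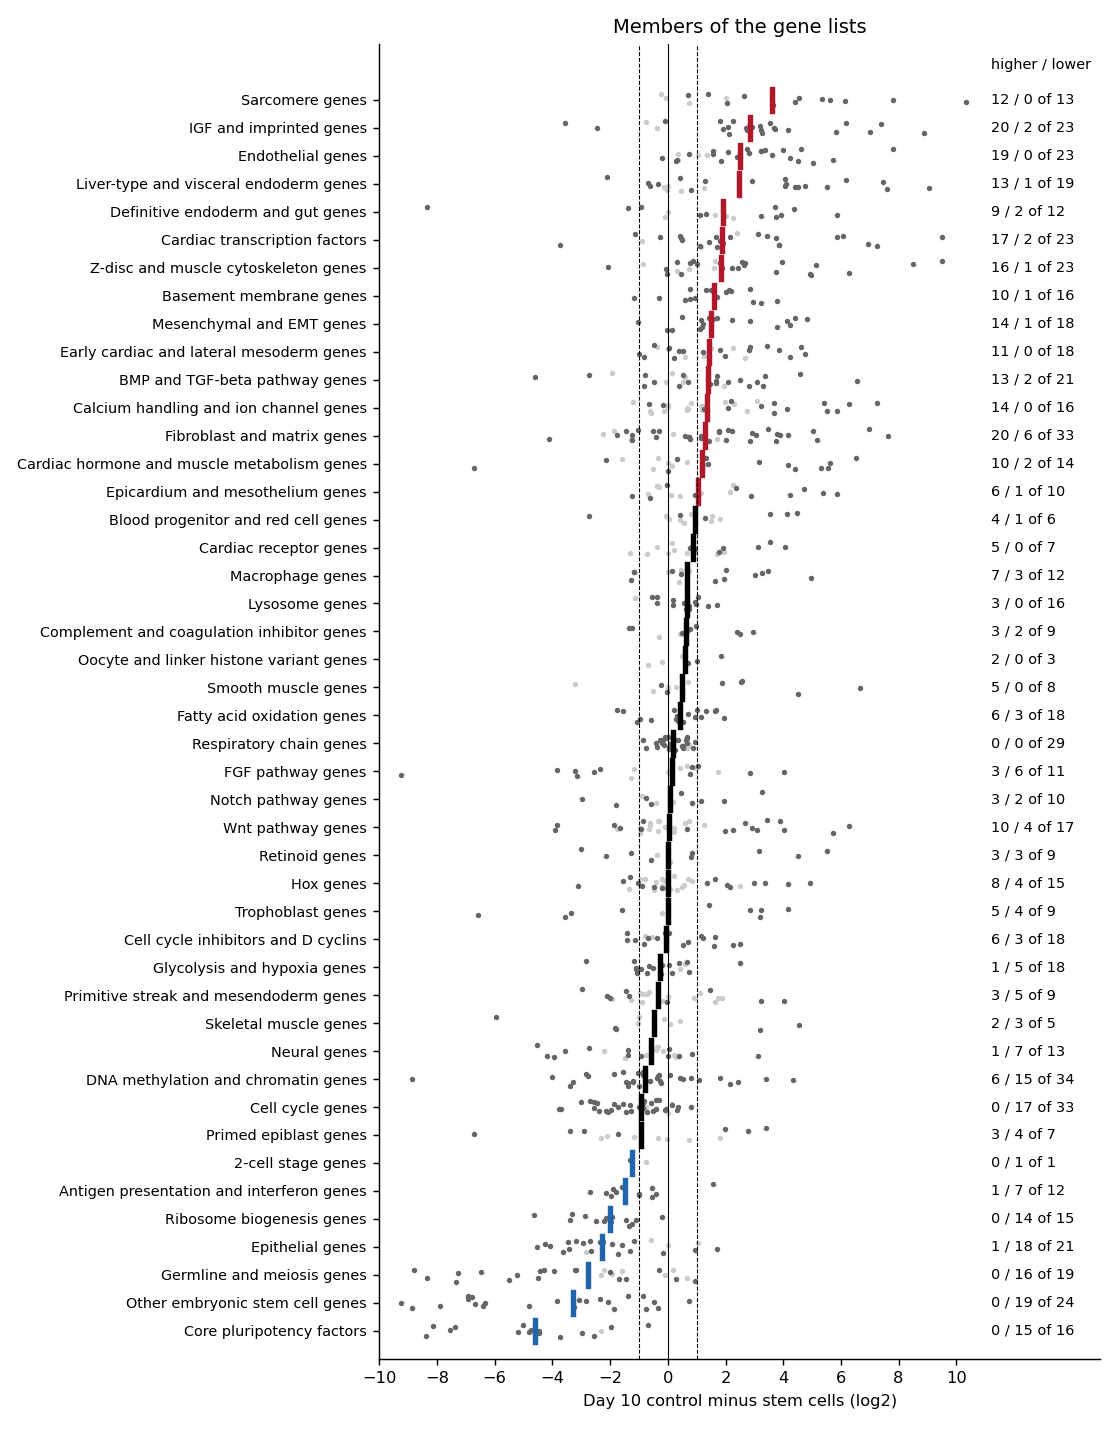
Day 10 minus stem cell difference (log2, horizontal axis) of every measured member of 45 gene lists, ordered by median. Dark points are genes above the filter, light points genes below it, and the thick bar is the median of all measured members, red where it is at least 1, blue where it is -1 or less and black between. The numbers on the right count members at least 2-fold higher and lower of those above the filter.

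Core pluripotency factors were lower almost without exception. Of 16 above the filter (17 measured), 15 were at least 2-fold lower and 0 higher, against 22.9% lower over all genes. Sox2, a central factor of the circuit, was at 17.26 in ESCs, 11.35 and 10.58 in control and knockdown cells at day 4, and 8.88 and 9.09 at day 10. Esrrb, an orphan nuclear receptor of naive cells, was at 16.26, then 8.93 and 8.30, then 8.13 and 8.08. For both genes the stem cell array was far above the other 4, which were closer to each other. Klf5 differed by -5.20, Klf2 by -5.02, Tfcp2l1 by -4.80, Nr5a2 by -4.59 and Klf4 by -4.47, all transcription factors of the naive state. Pou5f1, which encodes Oct4, was the exception on its single probe, at 12.20 in ESCs, 10.93 and 10.91 at day 4, and 11.53 and 10.94 at day 10. Its difference of -0.67 lies within the between-probe SD of 0.776. How well this single probe reports the transcript was not tested. A second exception appeared in the knockdown line, where Prdm14, a germ cell and naive state factor, was at 13.18 at day 10 although it was at the floor in control day 10 cells and at 11.37 in ESCs.

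Other embryonic stem cell genes showed a median of -3.28, and 19 of 24 were at least 2-fold lower and 0 higher. Fgf4, Dnmt3l, Tcl1, Fbxo15 and Tdgf1, a Nodal co-receptor, led them. Dppa4 (-4.80), Tet1 (-3.30), an enzyme that oxidises methylcytosine, and Lin28a (-3.09), an inhibitor of let-7 processing, were also lower. Tdgf1 stood at 17.29 in ESCs, 13.43 in control cells at day 4 and 10.38 at day 10. The receptor for LIF was not lower: Lifr was at 13.17 in ESCs and 13.90 at day 10 (0.73). Genes of the primed epiblast, the stage just after the naive one, were mixed, with 4 of 7 lower and 3 higher and a median of -0.93 over 15 measured. Otx2, a factor of the anterior epiblast, was lower (-6.71), while Sall2 (2.77) and Nkd1 (1.97), a Wnt feedback inhibitor, were higher. Within this list the de novo DNA methyltransferases lay on opposite sides: Dnmt3b was at 14.90 in ESCs and 11.50 at day 10 (-3.40), and Dnmt3a at 10.55 and 13.94 (3.39).

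Germline and meiosis genes were lower as a group. Of 19 above the filter (26 measured), 16 were at least 2-fold lower and 0 higher, with a median of -2.76. Mael, which protects germ cells from transposons in the piRNA pathway, was at 13.12 in ESCs, 6.73 and 6.78 in control and knockdown cells at day 4 and at the floor on both day 10 arrays. Dazl, an RNA-binding protein of germ cells, was at 12.29 in ESCs, 7.32 in control cells at day 4 and 6.78 at day 10 (-5.51). Ddx4, the germ cell helicase Vasa, was at 11.78, 9.81 and 8.56 (-3.22). Dmrt1 (-4.51), Stra8 (-4.31 or less), the retinoic acid target that opens meiosis, and Zp3 (-3.18), an egg coat protein, went the same way. For Mael the drop was complete by day 4, whereas Ddx4 differed by -1.97 before day 4 and by -1.25 after it. Mov10l1, another piRNA gene, was at 9.90 in ESCs, at the floor on both day 4 arrays and at 10.83 in control day 10 cells (0.94).

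Promoter windows of 300 bases, 250 before to 50 after the annotated start, were searched on both strands for a set of motifs in the RefSeq promoter table of GRCm38.p6. The hexamer CACGTG, the E-box read by MYC, MAX and MGA among others, was present in 9 of 21 germline windows, against 7.24% of all 27025 RefSeq windows and 10.47% of windows of genes above the filter. Those 9 were Ddx4, Mael, Taf7l, Slc25a31, Stk31, Mov10l1, Hormad1, Brdt and Zp3. By group, the E-box was in 8.26% of windows of genes at least 16-fold lower, 11.64% at least 2-fold lower and 10.88% within 2-fold. Of the other motifs, the CCAAT box was in 14 of 21 germline windows, against 38.35% of windows of genes above the filter. Having the E-box did not go with a loss in each case, since Mov10l1 (0.94) and Brdt (0.67, below the filter) were not lower. Some strongly lower genes had windows without it, among them Ooep (-8.80) and Dazl (-5.51). A match describes these letters only and is no evidence of binding. The windows of Mael (chr1:166238695-166238994, minus strand) and Ddx4 (chr13:112652261-112652560, minus strand) are shown 5′ to 3′ as examples of the matched germline promoters, with the E-box in capitals and, in Ddx4, the E2F-type octamer GGCGGGAA (2.24% of all windows) also in capitals.
Mael: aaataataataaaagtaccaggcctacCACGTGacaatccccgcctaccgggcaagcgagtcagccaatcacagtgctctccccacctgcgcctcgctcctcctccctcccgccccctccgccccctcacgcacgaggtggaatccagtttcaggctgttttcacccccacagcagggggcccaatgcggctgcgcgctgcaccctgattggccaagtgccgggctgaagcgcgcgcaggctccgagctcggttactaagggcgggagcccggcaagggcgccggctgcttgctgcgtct
Ddx4: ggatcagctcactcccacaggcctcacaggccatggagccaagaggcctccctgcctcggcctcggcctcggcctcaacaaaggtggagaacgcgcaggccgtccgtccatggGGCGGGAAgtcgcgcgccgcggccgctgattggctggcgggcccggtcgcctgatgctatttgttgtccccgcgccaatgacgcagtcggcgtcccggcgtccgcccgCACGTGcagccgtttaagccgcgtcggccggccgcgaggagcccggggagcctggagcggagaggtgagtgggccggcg
In Mael the E-box starts at -223 from the annotated start and lies on the far end of the window. In Ddx4 it starts at -29, and the octamer at -137. Their CpG observed-over-expected ratios were 0.780 and 0.978.

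Epithelial genes were lower and mesenchymal genes higher. Stem cell colonies are held together by E-cadherin and tight junctions, which cells lose when they leave the epiblast for the mesoderm. Of 21 epithelial genes above the filter (25 measured), 18 were at least 2-fold lower and 1 higher, and the median was -2.27. Cdh1, which encodes E-cadherin, was at 16.35 in ESCs, 13.45 and 12.57 in control and knockdown cells at day 4, and 11.83 and 11.11 at day 10. The membrane protease St14 (-4.27), the claudins Cldn4 (-4.07) and Cldn3 (-2.27), Epcam (-3.18) and the splicing factor Esrp1 (-3.44) were lower too. The 1 gene that was higher was Cdh3, P-cadherin (1.70). Of 18 mesenchymal genes, all above the filter, 14 were at least 2-fold higher and 1 lower, against 23.2% higher over all genes, with a median of 1.49. Cdh2, N-cadherin, was at 10.01 in ESCs, 14.01 at day 4 and 14.13 at day 10, so that its gain was complete by day 4. The repressors Snai2 (4.83), Zeb2 (4.42) and Zeb1 (2.85) were higher, as was Twist1 (3.78). Snai1 was at 13.65 in ESCs, 15.06 at day 4 and 13.63 at day 10, and its net difference of -0.02 hides a higher level in between.

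Streak genes as a list were higher at day 4 and slightly below the stem cell level on net. Of 25 measured genes of the primitive streak and mesendoderm, the transient tissue of gastrulation, 9 were above the filter, and the median net difference was -0.32. The same genes had a median of 2.27 from ESCs to control day 4 and of -2.68 from day 4 to day 10. T, brachyury, was at 10.62 in ESCs, 14.92 and 13.98 in control and knockdown cells at day 4, and 9.28 and 9.67 at day 10. Mesp1, which marks the first cardiac progenitors, was at the floor in ESCs, at 13.78 at day 4 and at the floor again at day 10. Eomes, the T-box factor of the study's title, was at 12.15 in ESCs, 12.01 at day 4 and 10.05 at day 10 (-2.10). Rspo3 (4.03), Cdx2 (3.22) and Cfc1 (1.47), a Nodal co-receptor, kept part of their day 4 level and were higher on net.

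Early cardiac and lateral mesoderm genes kept more of theirs. Of 18 above the filter (25 measured), 11 were at least 2-fold higher and 0 lower, and the median was 1.42 (0.62 with the values as deposited). Pdgfra, a receptor of mesodermal progenitors, was at 9.82 in ESCs, 12.98 and 13.26 in control and knockdown cells at day 4, and 14.56 and 14.41 at day 10. Kdr, the VEGF receptor of early mesoderm and endothelium, was at 8.65, then 14.41 and 13.49, then 13.26 and 13.35. Isl1, a factor of the second heart field, was at 7.29 in ESCs, 11.63 at day 4 and 11.13 at day 10 (3.84), and Hand1 at 11.49, 15.54 and 12.91 (1.42). All 4 were well above the stem cell level on both later control arrays, but Kdr, Isl1 and Hand1 had been higher at day 4 than at day 10. Foxc1 (4.22), Fgf10 (2.86) and Wnt5a (1.99) were also higher on net. In the list the lowest was Foxh1, a partner of SMAD proteins in Nodal signalling, at -0.99.

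Transcription factors of the heart were higher with few exceptions. Of 23 above the filter (26 measured), 17 were at least 2-fold higher and 2 lower, and the median was 1.87. Hand2, needed for the right ventricle, was at the floor in ESCs, at 11.88 and 11.27 in control and knockdown cells at day 4, and at 13.91 and 14.34 at day 10. Mef2c, a partner of GATA and HAND factors on muscle genes, was at the floor in ESCs, at 9.09 and 7.96 at day 4, and at 13.59 and 12.72 at day 10, and its second probe differed by 4.17. Both were thus at the floor in stem cells and brightest on the day 10 arrays. Gata6 (5.85), Tbx20 (at least 3.74), Gata5 (at least 3.84), Tbx5 (3.44), Zfpm2 (3.12), a cofactor of Gata4, and Gata4 itself (1.92) were higher. Ankrd1, a stretch-responsive nuclear cofactor, was at 9.11 in ESCs, 6.84 at day 4 and 15.19 at day 10. Tbx3, which serves both naive stem cells and the conduction system, was lower (-3.73). The other lower gene was Casz1 (-1.15), a zinc finger factor, but its second probe differed by 1.31 and with all probes averaged its difference was 0.08.

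Sarcomere genes made up the list with the highest median. Of 13 above the filter (17 measured), 12 were at least 2-fold higher and 0 lower. The median was 0.25 from ESCs to day 4 and 4.07 from day 4 to day 10. Tnni3, the adult cardiac form of the inhibitory troponin, was at 10.81 in ESCs, 10.58 and 10.87 in control and knockdown cells at day 4, and 16.13 and 14.58 at day 10. Tnni1, the slow skeletal and fetal heart form, was at 10.90, then 12.38 and 12.61, then 17.04 and 16.31. Tnnt2, cardiac troponin T, was at 7.26, then 8.82 and 8.51, then 12.89 and 15.94. In all 3 the day 10 arrays were above the other arrays, and only for Tnnt2 was the knockdown array the brighter of the 2. Ttn, the giant spring protein, was at 11.03 in ESCs, 10.47 at day 4 and 15.56 at day 10 (4.54). Tcap (4.39), which ties titin to the Z-disc, Actn2 (3.66), the alpha-actinin of the Z-disc, Tnnc1 (3.61), Acta1 (2.64), Tpm1 (2.05) and Tpm2 (1.39) completed the higher genes. On the knockdown day 10 array, which shares the ESC array as its reference, the list median was 1.97 against 3.61 in control cells.

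The CArG box, the site of serum response factor, is a known feature of muscle actin promoters. It was found in 2 of 15 sarcomere windows, Actc1 and Acta1, and in 6 of 24 windows of Z-disc and cytoskeleton genes, Ldb3, Fhl1, Fhl2, Dmd, Asb2 and Vcl, against 1.57% of all RefSeq windows. Having the box did not go with a gain in each case, since Dmd was lower (-2.06) and Fhl1 level (-0.04). By group, the box was in 1.09% of windows of genes at least 16-fold higher and 1.34% of those within 2-fold. In windows of genes at least 2-fold higher and lower the shares were 1.7% and 0.88%. The 3 windows shown here 5′ to 3′ carry both the box and a higher level at day 10, namely Actc1 (chr2:114052826-114053125), Acta1 (chr8:123894726-123895025) and Ldb3 (chr14:34588632-34588931), all on the minus strand. Capitals mark the CArG box and, in the actins, the TATA box (TATAAA, 14.16% of all windows).
Actc1: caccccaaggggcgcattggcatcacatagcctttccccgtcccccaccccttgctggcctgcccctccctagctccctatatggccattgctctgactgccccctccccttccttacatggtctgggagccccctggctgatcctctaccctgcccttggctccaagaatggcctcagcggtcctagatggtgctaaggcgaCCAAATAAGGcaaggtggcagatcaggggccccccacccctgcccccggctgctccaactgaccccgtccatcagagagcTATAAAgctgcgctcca
Acta1: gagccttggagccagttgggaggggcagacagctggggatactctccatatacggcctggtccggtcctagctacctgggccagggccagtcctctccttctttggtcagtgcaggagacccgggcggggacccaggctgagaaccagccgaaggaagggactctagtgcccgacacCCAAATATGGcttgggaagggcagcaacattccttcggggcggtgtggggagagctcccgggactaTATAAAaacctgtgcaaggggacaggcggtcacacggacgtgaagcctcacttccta
Ldb3: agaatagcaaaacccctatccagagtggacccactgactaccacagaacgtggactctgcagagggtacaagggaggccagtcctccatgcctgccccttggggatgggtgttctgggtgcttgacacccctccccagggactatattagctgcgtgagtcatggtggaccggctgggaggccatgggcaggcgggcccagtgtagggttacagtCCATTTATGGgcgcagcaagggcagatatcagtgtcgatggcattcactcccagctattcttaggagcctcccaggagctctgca
The box starts at -47, -73 and -35 from the annotated start in Actc1, Acta1 and Ldb3. In Actc1 the TATA box lies 34 bases past the start that the table lists, and in Acta1 it starts at -7. CpG ratios were 0.259, 0.435 and 0.239, below the median of 0.766 for windows of genes above the filter. The median of all RefSeq windows was 0.389.

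Z-disc and muscle cytoskeleton genes showed a median of 1.84, and 16 of 23 were at least 2-fold higher and 1 lower. Csrp3 was at the floor in ESCs, at 7.77 and 8.19 in control and knockdown cells at day 4, and at 16.16 and 13.87 at day 10. Smpx, a small muscle protein, was at the floor in ESCs and at day 4 and at 12.93 at day 10. Hspb7, a small heat shock protein of heart muscle, was at 8.47, 8.72 and 13.45 in ESCs and in control cells at days 4 and 10. These 3 were low until day 4 and bright only at day 10, whereas Pdlim3, an actinin-binding protein, was at 9.76 in ESCs, 15.00 at day 4 and 14.91 at day 10. Ldb3 (3.76), also called cypher, was higher on its brightest probe and by 1.49 to 2.88 on its other probes. Unc45b (3.95), the myosin chaperone, Xirp1 (2.63) and the intermediate filament gene Des (2.57) were higher too. The lower gene was Dmd, dystrophin.

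Genes for calcium handling and ion channels were higher in 14 of 16 above the filter and lower in 0, but 17 of the 33 measured members were below the filter, and the median over all was 1.36. Pln, phospholamban, which restrains the calcium pump, was at the floor in ESCs and on both day 4 arrays, and on the day 10 arrays at 12.93 for the control and 12.00 for the knockdown line. Popdc2, a cAMP-binding protein of the pacemaker, was at 7.94, then 8.27 and 8.62, then 15.18 and 14.26, and its other probes gave 4.74 and 6.14. Cacna1c, the pore of the L-type calcium channel, was at 7.61, then 9.50 and 9.08, then 13.13 and 11.23. For all 3 the day 10 control array was the brightest of the 5. The potassium channel genes Kcnj5 (at least 5.85) and Kcnj2 (3.67), the T-type channel Cacna1h (3.21), Hrc (4.14), a calcium binder of the reticulum, and Kcnh2 (1.37) were higher. Gap junction genes were not among the gains, with Gja1, the main heart connexin, at 16.29 in ESCs and 15.64 at day 10 (-0.65). Atp2a2, the calcium pump itself, was higher by 2.08 on its brightest probe, while its other 2 probes gave -0.47 and 4.40.

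Heart hormones and muscle metabolism genes showed a median of 1.19 (0.16 with the values as deposited), and 10 of 14 were higher and 2 lower. Nppa, atrial natriuretic peptide, was at 7.42 in ESCs, 7.75 and 8.03 in control and knockdown cells at day 4, and 13.94 and 12.52 at day 10. Nppb, the ventricular peptide, was at 9.45, 9.44 and 10.78 in ESCs and in control cells at days 4 and 10 (1.33). Corin, the protease that activates the prohormone of Nppa, was at least 5.55 higher. Of the metabolic regulators, Esrrg was at least 5.31 and Ppargc1a at least 4.16 higher, both inducers of mitochondrial genes. Mb, myoglobin, was higher by 3.15 on the brighter probe and 0.67 on the other. Lpl, which releases fatty acids from lipoproteins, was at 13.47 in ESCs, 7.32 at day 4 and 6.77 at day 10 (-6.71), and Cd36, a fatty acid transporter, was lower too (-2.16, and -1.08 with all probes averaged). Receptor genes of the heart reached the filter in 7 of 18 cases, of which 5 were higher, among them Ednrb (4.05), Edn1, its ligand endothelin (3.13), and Igf1r (3.53).

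**Figure D3:**
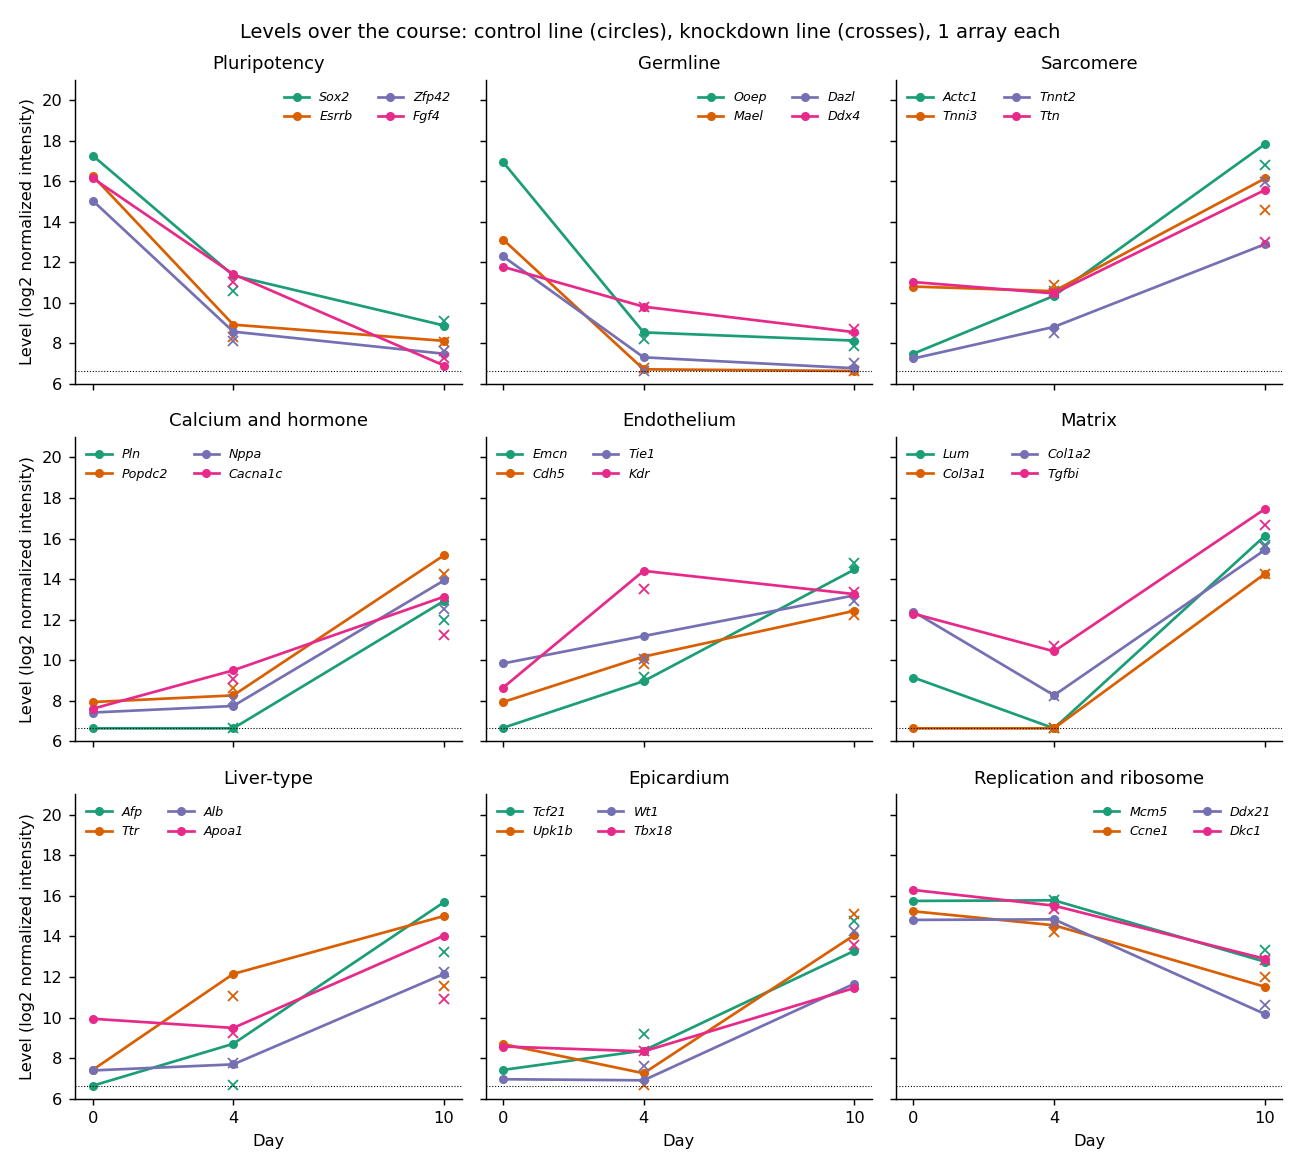
Levels of 36 genes of 9 roles on all 5 arrays (log2 normalized intensity against day). Circles joined by lines are ESCs and the control line, crosses the knockdown line at days 4 and 10, each from 1 array, and the dotted line is the floor of 6.64. Pluripotency and germline genes were below their stem cell level by day 4, while most sarcomere, matrix and epicardium genes were brightest at day 10.

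Forms listed as the broad and the muscle form of the same protein could be compared in 14 of 19 pairs with both genes measured. In 10 of the 14 the difference of the muscle form lay above that of the broad form by at least 1, through a gain, a loss of the broad form, or both. The narrowest of these gaps was 1.04, for Cox7a1 over Cox7a2, beside a single-probe SD of 0.776. Of all genes above the filter 46.1% differed at least 2-fold in either direction. How often unrelated genes lie as far apart was not tested. The actin pair was the widest apart: Actb, cytoplasmic actin, was level (0.29) while Actc1 differed by 10.32. In glycolysis, Pgam2, the muscle phosphoglycerate mutase, differed by 5.63 against 0.04 for Pgam1. Subunits of cytochrome c oxidase went the same way, with Cox8b at least 4.41 against 0.12 for Cox8a, Cox6a2 at 1.41 (0.64 to 6.31 over the alternative settings) against -0.67 for Cox6a1, and Cox7a1 at 1.19 against 0.14 for Cox7a2. In the alpha-actinins the broad form went down, with Actn4 at -4.18 and Actn2 at 3.66. Of the calcium pumps, Atp2a3, the form listed as broad, was at -2.21. Atp2a2, the form listed as muscle, was at 2.08 on its brightest probe, while its other probes differed in sign. Tmod1 gained at least 7.82 against 0.11 for Tmod3. No such gap was seen for the creatine kinases Ckb (-0.57) and Ckm (-0.50), the phosphofructokinases Pfkl (0.61) and Pfkm (0.66), or Lasp1 (-0.29) and Nebl (-0.05). For mitochondrial creatine kinase the gap came from the loss of Ckmt1 (-4.14), since Ckmt2 stayed below the filter. For the glucose transporters the gap came mostly from the lower Slc2a1 (-1.06), with Slc2a4 at 0.30. Of the splicing regulators Mbnl3 (2.97) and Mbnl1 (1.53), the form listed as broad gained more.

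**Figure D4:**
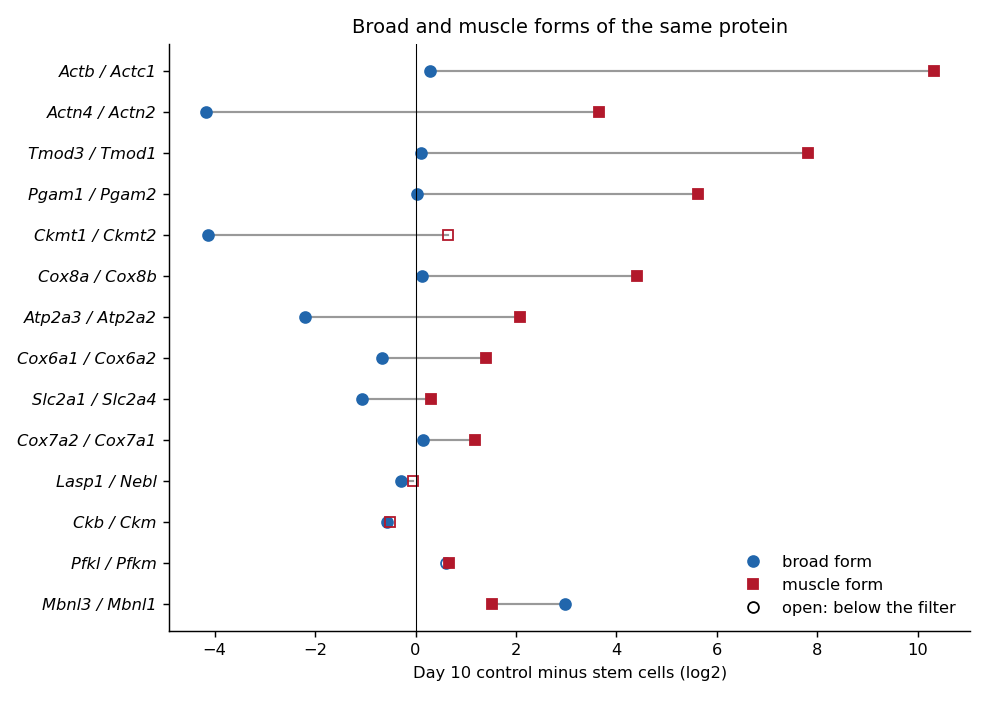
Day 10 minus stem cell difference (log2) of the forms listed as broad (blue circles) and as muscle (red squares) of 14 proteins, ordered by the gap. Open symbols are genes below the filter, and values with an array at the floor are bounds. In 10 pairs the muscle form lies at least 1 unit to the right of the broad form.

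Respiratory chain genes, 29 of 33 above the filter, had 0 members past 2-fold in either direction, where 46.1% of all genes above the filter passed it, and a median of 0.16, which was -0.33 with the values as deposited. Their range ran from Cox5b (-0.87) to Ndufa2 (0.93). Fatty acid oxidation genes showed a median of 0.43, and 6 of 18 were higher and 3 lower. Eci2 (1.95), Etfdh (1.67), Acaa2 (1.65) and Acadl (1.31) were higher, while Hadha (-1.76) and Cpt1a (-1.57), the liver form of the carnitine entry enzyme, were lower. Cpt1a was at 13.67 in ESCs, 7.88 at day 4 and 12.10 at day 10. Glycolysis and hypoxia genes showed a median of -0.26, and 5 of 18 were lower and 1 higher. Among them Hk2 (-1.11) and the glucose transporters Slc2a1 (-1.06) and Slc2a3 (-1.09) were lower, and Vegfa, the endothelial growth factor, was higher (2.51). Tpi1, triosephosphate isomerase, was at 15.15 in control day 10 cells and between 17.77 and 18.41 on the other 4 arrays, so that its -2.83 rests on 1 array that stands apart. Lysosome genes had 3 of 16 higher and 0 lower, led by Lamp2 (1.69).

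Genes of ribosome building were lower nearly throughout, and those of the cell cycle in part. Of 33 cell cycle genes above the filter (36 measured), 17 were at least 2-fold lower, 16 within 2-fold and 0 higher, with a median of -0.93. The lower ones included Orc1 (-3.78), Ccne1, cyclin E1 (-3.72), Mcm5 (-3.00), Mcm2 (-2.69), Cdt1 (-2.45) and E2f1 (-2.40), and the spindle checkpoint kinases Bub1 (-1.74) and Bub1b (-1.47). Mcm5, a subunit of the replicative helicase, was at 15.75 in ESCs, 15.78 and 15.78 in control and knockdown cells at day 4, and 12.76 and 13.34 at day 10. Members within 2-fold included Aurkb at 13.43 in ESCs and 13.75 at day 10, Ccnb2 at 14.16 and 14.50, and Top2a at 15.69 and 15.19. Mki67 differed by -0.99 on the brighter probe and 0.08 on the other. Of 15 ribosome biogenesis genes, all above the filter, 14 were at least 2-fold lower and 0 higher, with a median of -2.02. Ddx21, a helicase of the nucleolus, was at 14.82 in ESCs, 14.85 and 14.67 at day 4, and 10.18 and 10.62 at day 10 (-4.64), and Dkc1, the pseudouridine synthase dyskerin, was lower too (-3.39). The cell cycle and ribosome biogenesis lists had medians of -0.04 and 0.19 from ESCs to day 4, and of -1.53 and -2.24 from day 4 to day 10. The CCAAT box (CCAAT, 37.92% of all windows) was in 21 of 28 cell cycle windows.

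Inhibitors of the cell cycle were mixed, with 6 of 18 higher, 3 lower and a median of -0.05. Cdkn1c, p57 (2.25), Cdkn2c, p18 (1.63), and Cdkn1b, p27 (1.59), were higher, along with the cyclin Ccnd2 (2.50). Gadd45a (-1.42) and Cdkn2b (-1.40) were lower. DNA methylation and chromatin genes, 34 above the filter, had 15 lower and 6 higher and a median of -0.80. Cbx7, the Polycomb subunit of stem cells, was at 14.95 in ESCs, 12.68 at day 4 and 10.93 at day 10 (-4.02), and Phc1 (-2.85) and Hells (-2.77) were lower. Smarca2, the BRM ATPase of SWI/SNF complexes, was at 10.95, 13.58 and 15.31 (4.36). Bmi1 (2.43), Smarcc2 (2.17) and Smarcd3 (1.82), the heart subunit of SWI/SNF, were higher, while the SWI/SNF subunit Smarcd1 (-1.40) was lower. Polycomb and SWI/SNF subunits thus lay on both sides of the comparison.

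Endothelial genes were higher at day 10 nearly throughout. Of 23 above the filter (27 measured), 19 were at least 2-fold higher and 0 lower, with a median of 2.51. Emcn, endomucin, was at 6.67 in ESCs, 8.97 and 9.19 in control and knockdown cells at day 4, and 14.48 and 14.81 at day 10. Cdh5, VE-cadherin, was at 7.94, then 10.18 and 9.83, then 12.44 and 12.25. Both were lowest in ESCs, intermediate at day 4 and highest at day 10. Icam2 (5.73), Ets1 (5.04), Tie1 (3.36), Tek (3.23), Flt1 (3.22) and Cd34 (2.75) were also higher. Pecam1, which mouse stem cells also transcribe, was at 12.25 in ESCs and 12.53 at day 10 (0.28).

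Of 6 blood genes above the filter (15 measured), 4 were higher and 1 lower, and the net median was 0.95, beside medians of 2.91 from ESCs to day 4 and -2.25 from day 4 to day 10. Tal1, which opens the blood and endothelial programme, was at 7.62 in ESCs, 14.35 at day 4 and 11.74 at day 10, and Lmo2, its partner, at 8.13, 14.45 and 11.67. Gata1, the red cell factor, was at 8.52, 11.43 and 8.54. Macrophage genes had 7 of 12 higher and 3 lower, with a median of 0.65, of -1.70 from ESCs to day 4 and of 3.04 from day 4 to day 10. Csf1r, the receptor of macrophage growth factor, was at 8.37 in ESCs, at the floor in control cells at day 4 and at 11.62 at day 10. Cd68, a lysosomal protein of macrophages, was at 13.33, 9.99 and 12.16, so that the ESC array had the highest level of the 3. Cx3cr1 (4.97), Mrc1 (3.48) and C1qb (3.04) were higher, and Laptm5 (-1.28) and Ctss (-1.17) lower.

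Matrix genes followed a similar dip and gain. Of 33 fibroblast and matrix genes above the filter (38 measured), 20 were higher and 6 lower, with a median of 1.30, of -1.79 from ESCs to day 4 and of 2.66 from day 4 to day 10. Lum was at 9.15 in ESCs, at the floor on both day 4 arrays, and at 16.13 and 15.69 in control and knockdown cells at day 10. Col1a2, a chain of type I collagen, was at 12.39 in ESCs, 8.27 and 8.23 at day 4, and 15.44 and 15.58 at day 10. Col3a1 was at the floor until day 4 and at 14.26 at day 10. For Lum and Col1a2 the stem cell array was thus above both day 4 arrays and below both day 10 arrays. The stem cells had grown on a feeder layer removed at harvest, and the part of any remaining feeder RNA in the ESC values of these genes was not tested. Tgfbi (5.16), Col5a2 (5.03), Fbn1 (3.90), Vcan (3.77) and Pdgfrb (3.46) were higher, and Timp2 (-4.13), Col12a1 (-1.78), S100a4 (-1.45), Lox (-1.25), Ccn2 (-1.23) and Prrx1 (-1.02, and 0.54 on its second probe) lower. Basement membrane genes, all 16 above the filter, had 10 higher and 1 lower and a median of 1.60, with Col4a1 (3.78), Lama4 (3.25), Lama2 (2.95) and Col4a2 (2.86) in front and Lama5 (-1.16) lower.

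Epicardial and mesothelial genes were among the late gains. Of 10 above the filter (18 measured), 6 were higher and 1 lower, and the median was 1.05 (0.36 with the values as deposited). Tcf21, which marks progenitors of heart fibroblasts, was at 7.42 in ESCs, 8.38 and 9.17 in control and knockdown cells at day 4, and 13.30 and 14.74 at day 10. Wt1, the Wilms tumour factor of the epicardium, was at 6.96, then 6.91 and 7.62, then 11.68 and 14.29. Upk1b (5.38), Upk3b (4.24) and Tbx18 (2.89) were higher too. All 5 were brighter on the knockdown than on the control array at day 10, and the list median against the shared ESC array was 2.96 for the knockdown line beside 1.05 for the control line. Other members of the list did not gain: C3 was lower (-1.26), and Bnc2 (-0.63) and Efemp1 (-0.04) lay within 2-fold. Aldh1a2 (-0.39) and Msln (0.13) were below the filter. Smooth muscle genes were above the filter in 8 of 15 cases, 5 higher and 0 lower, with a median of 0.50. Acta2, smooth muscle actin, which early heart muscle also makes, was at 15.44 in ESCs, 11.02 at day 4 and 18.01 at day 10. Itga8 (6.68) and Rgs5 (4.52), a pericyte gene, were higher, while Tagln stayed below the filter.

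Liver-type and visceral endoderm genes were also bright at day 10. Of 19 above the filter (25 measured), 13 were higher and 1 lower, with a median of 2.47. Afp was at the floor in ESCs, at 8.71 and 6.68 in control and knockdown cells at day 4, and at 15.70 and 13.22 at day 10. Ttr was at 7.42, then 12.16 and 11.08, then 15.01 and 11.57. Apoa1, the apolipoprotein of HDL, was at 9.94, then 9.49 and 9.22, then 14.05 and 10.90. In all 3 the control day 10 array was the brightest of the 5. Alb, albumin, was at 7.40 in ESCs and at 12.16 and 12.24 in the control and knockdown day 10 arrays. Tdo2 (at least 7.47), Fgb (at least 6.16), Rbp4 (5.52) and Apob (4.07) were higher, while Hnf4a, a regulator of liver genes, was not (-0.61), and Lrp2, a receptor of visceral endoderm, was lower (-2.09). Definitive endoderm and gut genes had 9 of 12 higher and 2 lower, with a median of 1.92. The higher ones include Gata6 and Gata4, which the heart also uses, and Sox17 (3.91), Sox9 (at least 4.37), Tff3 (3.75) and Spink1 (3.72). Trh (-8.36) and Prdm1 (-1.39) were the lower ones. This list had a median of 2.14 from ESCs to control day 4 and of -0.56 from day 4 to day 10. On the knockdown day 10 array its median against ESCs was 0.08.

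Genes of other lineages gave less. Neural genes had 7 of 13 lower and 1 higher and a median of -0.59, with Neurod1 (-4.52), Stmn2 (-4.21) and Elavl3 (-3.56, and -1.93 with all probes averaged) lower and Ncam1 (3.12), which the heart also makes, higher. Skeletal muscle genes reached the filter in 5 of 12 cases, with Cav3 (at least 4.56), a caveolin also of heart muscle, and Tnni2 (3.21) higher and Mymx (-5.94), a fusion peptide of myoblasts, at 15.37 in ESCs, lower. Trophoblast genes were divided, with 5 of 9 higher and 4 lower. Tfap2c was lower (-6.58) and Plac1 higher by at least 4.18. Of 38 measured Hox genes 15 were above the filter, 8 higher and 4 lower. The higher ones were anterior to central members, Hoxb2 (4.94), Hoxb4 (4.16), Hoxb3 (3.37, but -0.08 on its second probe) and Hoxd4 (2.99) in front, and the lower ones were Hoxc13 (-3.12), Hoxd13 (-1.54), Hoxc6 (-1.30) and Hoxc8 (-1.03). Hoxb2 was at 9.35 in ESCs, 14.02 and 14.53 at day 4 and 14.29 and 14.52 at day 10, close to even on the 4 later arrays.

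Among signalling pathways, BMP and TGF-beta genes were mostly higher. Of 21 above the filter (27 measured), 13 were higher and 2 lower, with a median of 1.38. By role, the ligand Tgfb2 was at 8.38 in ESCs, 13.20 at day 4 and 14.93 at day 10 (6.55, but 1.82 with only the 2 compared arrays normalized together), and Bmp5 was higher by 2.80, while Bmp4, which had been added to the day 4 medium, was at -0.81. Receptors were higher, with Tgfbr3 (4.59), Tgfbr2 (3.30) and Bmpr1a (1.38), and so were the targets Id2 (3.08), Id1 (2.09), Id3 (1.71) and the inhibitor Smad6 (3.36). The antagonist Grem1 (-4.59) and the activin chain Inhba (-2.73) were lower. Wnt genes showed a median of 0.06, and 10 of 17 were higher and 4 lower: the ligand Wnt2 (6.29), the receptor Fzd1 (5.72) and the inhibitors Frzb (3.89) and Dkk1 (at least 3.44) were higher, and Fzd5 (-3.86), Sfrp4 (-3.92 or less) and Tcf7 (-1.86) lower. Wnt2 was at 7.50 in ESCs, 12.75 at day 4 and 13.79 at day 10. In the FGF pathway 6 of 11 were lower and 3 higher, and the median was 0.13 over all measured members and -2.35 over those above the filter. The ligands Fgf4, Fgf15 (-3.21) and Fgf17 (-3.15) and the ETS targets Etv5 (-3.86) and Etv4 (-2.35) were lower, while Fgf10 (2.86), the factor added to the day 10 medium, and Fgfr3 (4.05) were higher. Notch genes were close to level (median 0.07), with Maml2 (3.28, with its second probe of opposite sign) and Dll4 (1.96) higher and Dll1 (-2.99) lower.

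IGF and imprinted genes were higher in 20 of 23 above the filter and lower in 2, with a median of 2.87, the second highest of the 45 lists. Igf2, the fetal growth factor, was at 12.95 in ESCs, 17.78 and 18.17 in control and knockdown cells at day 4, and 18.78 and 18.86 at day 10. Plagl1, an activator of imprinted genes, was at 10.49, then 9.37 and 8.40, then 17.51 and 13.99. Igf2 had thus gained most of its difference by day 4, and Plagl1 all of it afterwards. Nnat (6.17), Sgce (4.16), Mest (3.70), Igf2r (3.24), Peg10 (3.18), Ndn (2.92), Cdkn1c (2.25), Grb10 (2.09) and Meg3 (1.91), all imprinted, were higher, as were the receptor Igf1r (3.53) and the ligand Igf1 (at least 3.73). The lower genes were Phlda2 (-3.55), an imprinted growth inhibitor of placenta, and Igfbp2 (-2.47). Impact was level (-0.10). Retinoid genes were divided 3 to 3 above the filter, with the carrier Rbp4 (5.52), the receptor Rarb (at least 4.53) and the enzyme Aldh1a1 (3.15) higher and Crabp1 (-3.00), Rarg (-2.15) and Crabp2 (-1.27) lower.

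Antigen presentation and interferon genes showed a median of -1.48, and 7 of 12 were lower and 1 higher. Isg15 (-2.69), Bst2 (-2.15), Irf1 (-1.97, and -0.99 with all probes averaged) and Ifitm3 (-1.90) were lower, and B2m, the light chain of MHC class I, was at 15.19 in ESCs, 13.62 at day 4 and 16.75 at day 10 (1.55). Complement and coagulation genes had 3 of 9 higher and 2 lower, with Plat (2.94), Serping1 (2.50) and Procr (2.39) higher and F3, tissue factor (-1.34), and C3 (-1.26) lower. Of the 15 genes listed for the 2-cell stage 3 were measured, and only Zfp352 was above the filter (-1.29). Histone variant genes gave 3 above the filter, with H2az2 (1.84) and H3f3b (1.01) higher.

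The promoters of the genes that differed most were poorer in CpG than those of level genes. A RefSeq window was found for 8120 of the 10059 genes above the filter, and for genes with several windows the one listed first was used. The median CpG observed-over-expected ratio was 0.796 for 4476 genes within 2-fold, 0.427 for 183 genes at least 16-fold higher and 0.522 for 121 genes at least 16-fold lower. A ratio under 0.4 was found in 10.12% of level genes, 45.9% of the 16-fold higher and 38.02% of the 16-fold lower. Over all RefSeq windows the median was 0.389, with 50.98% under 0.4. The 16-fold groups were thus poorer in CpG than level genes, but not poorer than promoters at large. The TATA box was in 6.17% of level windows, 15.3% of the 16-fold higher and 12.4% of the 16-fold lower, beside 14.16% of all RefSeq windows. The GATA hexamer AGATAA was in 5.50%, 15.3% and 6.61%, and the MEF2 site in 1.30%, 6.56% and 1.65% of the same 3 groups. Beside all RefSeq windows, which include genes that are silent here, the shares are 11.41% for GATA and 3.26% for MEF2. CpG-poor windows hold more A and T, and the part of base composition in the motif shares was not tested.

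**Figure D5:**
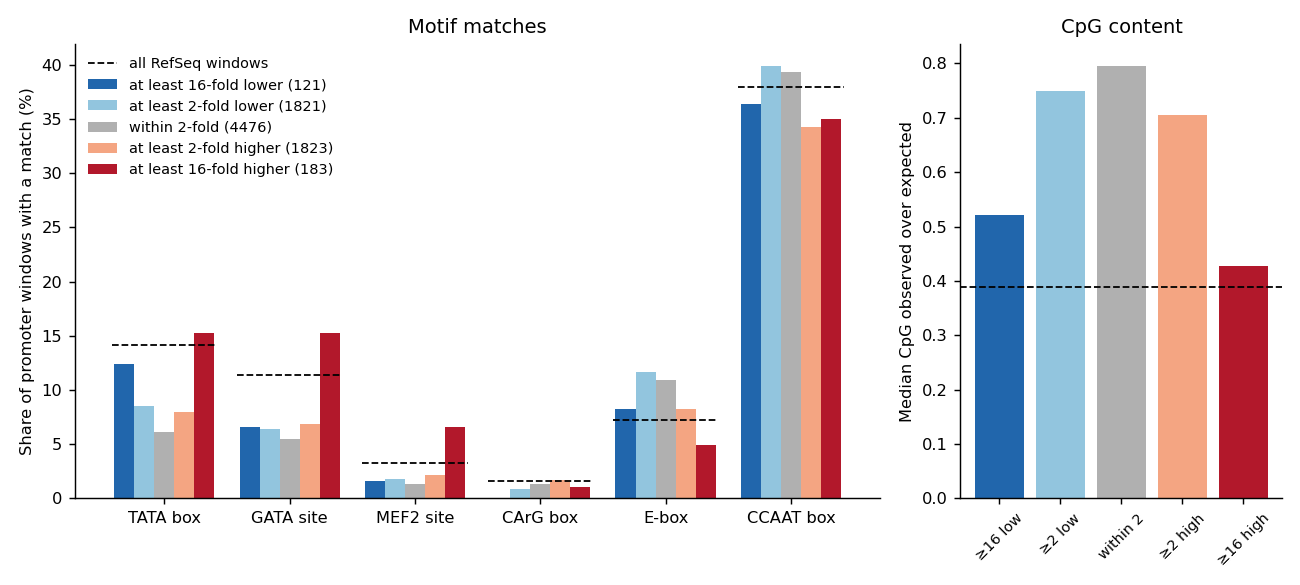
Left, share of RefSeq promoter windows (300 bases) with a motif match on either strand, by how the gene differed between control day 10 cells and stem cells, with the number of windows in the legend and the share of all RefSeq windows dashed. Right, median CpG observed-over-expected ratio of the same groups, where genes within 2-fold are highest (0.796) and genes at least 16-fold higher are lowest (0.427). The dashed line there is the median of all RefSeq windows (0.389). The 16-fold groups are part of the 2-fold groups.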

How the data were processed

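Total RNA of 5 mouse cultures, 1 per group, was amplified, labelled with Cy5 and hybridised to single-colour arrays. Per the labels' protocols and the values themselves, the authors deposited probe intensities on a linear scale, made with Agilent Feature Extraction 10.7.1.1 per the submitters' processing notes, and whether they were normalized between arrays is not given in the sources. Detection and saturation marks were not used here. Deposited medians ran from 344 to 745 over the 5 arrays (633 for ESCs and 344 for control day 10), and 3 probes on each compared array were at or below 0.

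Intensities of 26423 probes were quantile normalized over the 5 arrays, raised to 100 where lower, and taken as log2 values. Gene symbols of 20377 probes came from the platform annotation, updated through the RefSeq gene table of GRCm38.p6 (18213 by current symbol, 2126 through a synonym, 38 kept as given), and 6046 probes are unnamed here. Each of 17742 genes was represented by its brightest probe (mean over arrays), and 2278 genes had several probes. A gene was counted where the brighter of the 2 arrays was at or above the median of all named genes, the 50th percentile, and the difference at least 2-fold. Having 1 array per group, the comparison has no p-value, and precision is limited by the number of arrays.

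Named genes are the 15 highest and 15 lowest above the floor on both arrays, leaving out gene models, the 5 brightest with 1 array at the floor in each direction, up to 5 members of a list along its median and 3 against it, and all members of the protein pairs. Further list members are named beside them as examples. The comparison, the 45 lists and the pairs were chosen with earlier results of these data known. Alternatives were the values as deposited, scaling to the 75th percentile, loess centring (span 0.3, 3 iterations), quantile normalization of the 3 control or 2 compared arrays, floors of 50 and 200, the mean of all probes, other filters, a 4-fold threshold and list members above the filter only. The steps were tested on simulated data. Python 3.11.15, numpy 2.4.6, pandas 2.3.3, statsmodels 0.14.6 and matplotlib 3.10.9 were used.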

Additional observations from a re-analysis of the deposited data

Results flagged for a closer look

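In 4 genes the control and the knockdown line at day 10 lay on opposite sides of the stem cells, each by at least 2-fold. The differences between the lines were not tested, both are taken against the same ESC array, and each gene had 1 probe. H19, an imprinted non-coding RNA, differed from ESCs by 3.28 on the control array and by -1.26 on the knockdown array, with levels of 12.30 in ESCs, 13.00 and 10.84 in control and knockdown cells at day 4, and 15.58 and 11.03 at day 10. Spink1, a secreted protease inhibitor of gut endoderm, differed by 3.72 and -1.45, and had been at 13.88 and 12.14 at day 4. Prdm14 differed by -4.73 or less in control cells, which were at the floor, and by 1.81 in knockdown cells, where its level of 13.18 was the highest of the 5 arrays. Rhox9, an X-linked homeobox gene, differed by -1.44 and 1.48, from levels of 10.89 in ESCs and, at day 10, 9.45 in the control and 12.36 in the knockdown line.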

How the results depend on the processing

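Scaling decides the balance of higher and lower genes. With the values as deposited, 1521 genes were higher and 3622 lower, and 8 lists had a median of at least 1 and 13 of -1 or less, against 2337, 2299, 15 and 7. The median of all genes then shifted to -0.51, and with scaling to a common 75th percentile to -0.28, where 11 lists were at -1 or less. Filtering at the 75th percentile gave 1192 higher and 1209 lower genes, the 4-fold threshold 1055 and 762, and members above the filter only 23 and 13 lists, by fewer or other genes entering. Without a filter 3039 and 2994 genes were counted, and at the median of all probes (9.16), an alternative chosen after seeing the data, 2675 and 2608. Other settings kept the counts within 1.5 times, and the muscle form was ahead in 10 pairs under all 8 settings run on pairs. Of 270 named genes at least 2-fold apart, 252 were so in all 8 alternatives run on genes. Casz1 was the 1 reversal, at 0.0798 with all probes averaged. Of 22 lists past 1 in either direction, 15 were so in all 9 alternatives and 0 reversed. The other 7 fell under 1 with the values as deposited: BMP and TGF-beta (0.83), calcium handling (0.86), hormone and metabolism (0.16), early cardiac mesoderm (0.62), epicardium (0.36), fibroblast and matrix (0.80) and mesenchymal (0.85). Over members above the filter the FGF median went from 0.13 to -2.35, calcium handling to 3.44, smooth muscle to 2.21, blood to 2.42, Wnt to 2.27 and Hox to 1.37, among others. No paired analysis was possible because the groups share only replicate number 1, and with 1 array a group no replicate could be left out. Dim genes limit the rest: 1772 genes were at the floor on both arrays.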

Other observations

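Runs of neighbouring genes that differed the same way were listed along the chromosomes. Placed in the order of the RefSeq table, 17710 genes gave 12 runs of at least 4 adjacent measured genes that were all at least 2-fold higher and 18 runs that were all lower. Of genes above the filter, 23.2% were at least 2-fold higher and 22.9% lower. No comparison with chance was made, so the runs are described only. The longest run, of 7 genes on chromosome 6, was Gng11, Bet1, Col1a2, Casd1, Sgce, Peg10 and Ppp1r9a, with differences from 1.18 to 4.16. It holds the imprinted genes Sgce and Peg10 and the collagen gene Col1a2. On chromosome 8, Irs2, Col4a1, Col4a2, Rab20 and Naxd were all higher (median 2.65), the 2 collagens being a pair that shares a promoter region. Fli1 and Ets1, ETS factors of endothelium, headed a higher run on chromosome 9 (median 2.72), and Hoxb7, Hoxb6, Hoxb5 and Hoxb3 formed one on chromosome 11 (median 1.89). Hoxb4 (4.16) and Hoxb2 (4.94) were also higher but fell outside that run in the order used, by annotated start. On the lower side, Aire, Dnmt3l, Icosl and Pwp2 stood together on chromosome 10 (median -3.58), and Slc22a18, Phlda2, Nap1l4 and Cars on chromosome 7 (median -2.31).

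Probes unnamed here were less even than named genes. Of 1434 above the filter, 300 (20.9%) were at least 2-fold higher and 455 (31.7%) at least 2-fold lower at day 10, against 23.2% and 22.9% of named genes. Which transcripts they measure was not analysed here.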
